A study of Mus musculus with 6 samples.

Results

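The MYC and MAX network was examined in CD4 T cells of the inflamed mouse colon through 8 genes, Myc, Max, Mxd1, Mxd3, Mxd4, Mxi1, Mnt and Mlx, which were picked by symbol from the 55335 genes of a bulk RNA-seq count table. The list was drawn up by name with the contrast between the sort gates already known, so differences of these 8 genes between the gates are given as a description and support nothing by themselves. The donor cells were naive splenic CD4 T cells of TcfGFP mice, in which GFP reports the Tcf7 locus, and the hosts were Rag1 knockout mice, which have no T or B cells of their own and develop colitis after the transfer. From the colon lamina propria of these hosts, 3 GFP-positive libraries (titled TCF7+ and labelled stem-like) and 3 GFP-negative libraries (titled TCF7- and labelled effector) were made. The 2 groups are called the positive and the negative gate, and values given in threes follow replicates 1 to 3. Donor origin, host genotype and colitis are shared by both gates, and no cells from before transfer or from a healthy colon are compared here. The labels give no ages and do not state whether replicates were separate or pooled mice, so the spread between libraries may be partly technical.

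MYC is a transcription factor of the basic helix-loop-helix leucine zipper class that binds DNA as a dimer with MAX, at E-box sites with the core CACGTG. MXD1, MXD3, MXD4, MXI1 and MNT also pair with MAX, bind the same sites and recruit SIN3 and histone deacetylases, so they oppose MYC. MLX is a MAX-like partner for part of the MXD proteins, for MNT and for the glucose-sensing factors MondoA and ChREBP. In T cells MYC is induced by antigen and cytokines and drives growth, nutrient uptake and ribosome production, while MXD proteins are associated with cell cycle exit and differentiation.

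The CACGTG core is the site on which all these dimers compete, so it was looked for in the members' own promoters. RefSeq promoter windows (GRCm38.p6, from 250 bases before to 50 after the gene's start) were matched for 7 of the 8 members, all but Myc. Those of Max, Mxd4, Mnt and Mlx each held CACGTG 1 time, and those of Mxd1, Mxd3 and Mxi1 (3 windows) did not. CACGTG reads the same on both strands, and 8.09% of the 27025 genes in the table had it in a window of this length. The matches are shown with 12 bases on each side and the core in capitals, 5′ to 3′ on the gene's strand.
Max, chr12:76962234-76962263, minus strand: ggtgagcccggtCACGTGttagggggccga
Mxd4, chr5:34187912-34187941, minus strand: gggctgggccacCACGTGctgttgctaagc
Mnt, chr11:74830789-74830818, plus strand: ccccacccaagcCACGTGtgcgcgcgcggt
Mlx, chr11:101087238-101087267, plus strand: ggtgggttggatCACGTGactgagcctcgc
The core began 219 bases before the start of Mxd4, 123 before that of Mnt and 40 before that of Mlx, and in Max it spanned the start itself. These are the RefSeq starts; the Max core lies upstream of the GENCODE start printed with that gene. A match describes these letters and does not show that a factor bound there.

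Total counts were 4309500 to 7462076 per library. Tcf7, the gene of the sorting reporter, stood at 140.8 to 237 CPM (counts scaled to library size) in GFP-positive libraries. In GFP-negative libraries it stood at 71.3 to 140.5 CPM, so in CPM the gates were only just separate. In the deposited TPM, which are also scaled by gene length, they overlapped. There Tcf7 stood at 119.7 in GFP-positive replicate 3 against 139.4 in GFP-negative replicate 2. Its log2 fold change (GFP-positive minus GFP-negative) was 0.75 ± 0.26 (SE; edgeR adjusted p = 0.367). As even Tcf7 missed the 0.05 threshold, a gene that is not called below may still differ between the gates. Cd4 (510 to 695 CPM) and Cd3e (622 to 795 CPM) were high in all 6 libraries, and Cd8a stood at 10.3 to 113 CPM. GFP-positive replicate 3 stood apart. The 10 myeloid markers held 0.669% of its counts against 0.0134% to 0.0192% in the other 5 libraries, where Adgre1 and Mpo were at 0, and the B and antigen-presenting list held 0.657% against 0.0193% to 0.0453%, with Cd79a, Cd79b and Ms4a1 at 0 in that library. Natural killer and innate lymphoid markers (0.0761% against at most 0.0126%), epithelial markers (0.0350% against at most 0.00683%) and stromal and endothelial markers (0.0390% against at most 0.00845%) were also highest there, and T cell identity genes were lowest (0.724% against 0.905% to 0.993%).

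All 8 genes were detected in every library and passed the expression filter. Their levels were compared in TPM (library-scaled values divided by gene length). Over the 6 libraries the order was Mxd1 (190.2 ± 31.0 TPM, SD, n = 6), Myc (108 ± 17.8), Mlx (100.3 ± 24.5), Mxd4 (23.0 ± 6.27), Mxi1 (12.7 ± 5.65), Max (11.9 ± 4.55), Mxd3 (9.78 ± 8.90) and Mnt (5.32 ± 1.21). Mxd1 exceeded Myc in 6 of 6 libraries and Mlx exceeded Mxd4 in 6 of 6, each with no overlap of their ranges. Myc and Mlx overlapped, with Myc above Mlx in 5 of 6 libraries, and Mxd4 was above Mxi1 in 6 of 6 although their ranges overlapped. Mxi1 was above Max in 2 libraries, Max above Mxd3 in 4 and Mxd3 above Mnt in 3, so neighbours among these 4 genes were not separated beyond their spread. Over the whole group Max and Mxi1 were each above Mnt in 6 of 6 libraries, for Max without overlap of the ranges. Among the tested genes, 92.7% had a lower mean TPM than Mxd1, 87.5% than Myc, 37.6% than Max and 18.9% than Mnt.

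**Figure D1:**
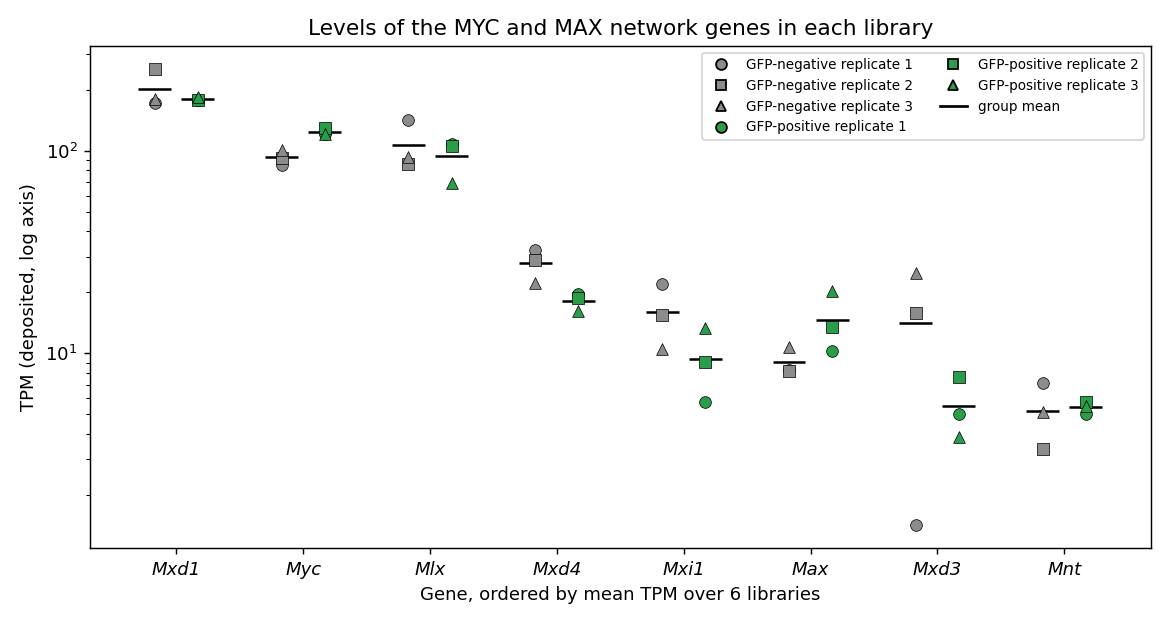
TPM (log axis) of the 8 network genes in each library, with GFP-negative libraries in grey, GFP-positive ones in green, the replicate shown by the symbol and the group mean by a bar. Mxd1 lies above all others, Myc and Mlx lie near 100 TPM together, and Mxd3 spreads widest, from 1.42 to 24.9 TPM.

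The obligate partner Max was one of the less abundant transcripts of its own network. Myc exceeded Max 5.93-fold to 11.8-fold in the 6 libraries, and Mxd1 exceeded Max 9.02-fold to 31.1-fold. For all 8 members the deposited TPM matched a division by the merged length of all annotated exons (GENCODE M21), 3598 bases for Max, 2717 for Myc, 7072 for Mxd1 and 1999 for Mlx. A gene whose cells use a transcript shorter than that sum has a TPM that is too low, and these ratios carry that limit.

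Mxd1 supplied most of the transcripts of the 4 MXD genes (Mxd1, Mxd3, Mxd4 and Mxi1). Its share of their summed TPM was 75.4%, 80.8% and 75.7% for the negative gate against 85.4%, 83.3% and 84.5% for the positive gate. These shares did not overlap between the gates. Mxd1 itself was not higher in the positive gate, with means of 201 ± 45.1 TPM in the negative and 179 ± 3.10 TPM in the positive gate (SD, n = 3 each). The shares restate the members' values and were not tested.

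Of the 8 members 3 had a positive and 5 a negative log2 fold change (GFP-positive minus GFP-negative). None passed edgeR's quasi-likelihood test at an adjusted p of 0.05 over all genes, where 12 of 11074 genes (0.108%) were called. Myc and Mxd4 had an unadjusted p below 0.05, as had 1138 genes (10.3%). DESeq2 and limma-voom called 0 members too, with 1.82% and 0.163% of all genes called, and so did edgeR without GFP-positive replicate 3 (0.452%). The lowest adjusted p among the 8 in edgeR was 0.294, for Myc. CPM values of the gates did not overlap for 2 of 8 members, Myc on the higher and Mxd4 on the lower side, against 16% of all tested genes (7.25% higher and 8.8% lower in GFP-positive cells). As the list was made with this contrast known, nothing is read from these counts.

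Myc (ENSMUSG00000022346.15, mm10 chromosome 15, 61985391 to 61990374, plus strand) encodes the activator of the network. It gave 80.2, 83.2 and 96.0 CPM in the negative gate against 110, 124 and 127 CPM in the positive gate, on 366 to 887 counts. Every GFP-positive library lay above every GFP-negative one, and the means of 86.5 ± 8.40 and 120.5 ± 9.35 CPM (SD, n = 3 each) differed by more than the SDs. In bulk samples a level cannot be split into the number of cells with a transcript and its amount per cell. The ratio of means was 1.39 and the log2 fold change 0.48 ± 0.16 (SE). It was 0.45 without GFP-positive replicate 3, whose Myc of 127 CPM lay close to the 124 CPM of replicate 2. Across leave-one-out fits it ranged from 0.43 to 0.57. Myc is itself an immediate early gene, and transcripts of 13 immediate early and handling genes held 1.31%, 1.07% and 0.872% of counts for the negative gate against 1.52%, 1.24% and 1.24% for the positive gate. GFP-negative replicate 1 had the lowest Myc and the second highest share of these genes. Their part in the level of Myc was not tested.

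Max (ENSMUSG00000059436.13, chromosome 12, 76937269 to 76962201, minus strand) is the shared partner. It gave 10.3, 9.78 and 13.6 CPM in the negative gate against 12.3, 17.2 and 28.4 CPM in the positive gate, on 43 to 198 counts. The gates overlapped, and the highest value belonged to GFP-positive replicate 3, in which markers of myeloid and other cells were high. The log2 fold change was 0.79 ± 0.40 (SE) over all libraries and 0.41 without that library, and the part of these other cells in it was not tested.

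Among the opponents of MYC, Mxd1 (ENSMUSG00000001156.9, chromosome 6, 86647042 to 86669161, minus strand), linked to differentiation and cell cycle exit, was the most abundant. It gave 419, 598 and 444 CPM in the negative gate against 420, 445 and 504 CPM in the positive gate. The gates overlapped, with both the highest and the lowest value on the GFP-negative side. The log2 fold change was -0.09 ± 0.16 (SE), and it ranged from -0.19 without GFP-negative replicate 1 to 0.08 without GFP-negative replicate 2, the highest library.

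Mxd4 (ENSMUSG00000037235.13, chromosome 5, 34173883 to 34187720, minus strand), another MXD repressor, gave 95.0, 81.6 and 66.2 CPM in the negative gate against 55.6, 56.6 and 53.6 CPM in the positive gate. All GFP-negative libraries lay above all GFP-positive ones, with SDs of 14.4 and 1.48 CPM (n = 3 each). The log2 fold change was -0.55 ± 0.19 (SE; edgeR adjusted p = 0.334), and -0.42 to -0.66 with 1 library left out. Of its exon bases 6.06% overlap the antisense gene Gm42846, which had 0 counts in every library.

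Mxi1 (ENSMUSG00000025025.14, chromosome 19, 53310518 to 53375810, plus strand), also a repressor of the MXD family, gave 51.9, 35.0 and 25.0 CPM in the negative gate against 13.2, 22.1 and 35.4 CPM in the positive gate. The gates overlapped through GFP-positive replicate 3. Its log2 fold change was -0.66 ± 0.37 (SE), or -1.08 when that library was left out and -0.35 when GFP-negative replicate 1 was. With the former left out edgeR's adjusted p for Mxi1 was 0.242 (0.242 to 0.832 over the 16 alternatives).

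Mxd3 (ENSMUSG00000021485.14, chromosome 13, 55325168 to 55329823, minus strand) is the exception in the family, since it is expressed in dividing cells. Its counts were 6, 55 and 94 for the negative gate against 23, 28 and 25 for the positive gate, or 1.16, 12.5 and 20.6 CPM against 3.98, 6.44 and 3.59 CPM. GFP-negative libraries held both the lowest and the highest 2 values. The log2 fold change was -1.29 ± 0.78 (SE) and ranged from -0.53 without GFP-negative replicate 3 to -1.83 without GFP-negative replicate 1. Beside it, the 15 cycling cell markers held 0.0831%, 0.158% and 0.211% of counts for the negative gate against 0.0572%, 0.0782% and 0.0727% for the positive gate. The same 2 libraries were highest for Mxd3 and for these markers, while GFP-negative replicate 1 had the lowest Mxd3 and the third highest marker share. All 15 markers had a log2 fold change below 0 (median -1.22), and 0 passed edgeR's test over all genes. Of the 15, 11 had an unadjusted p below 0.05, beside 10.3% of all tested genes. The part of cycling in the level of Mxd3 was not tested. A stretch of 105 exon bases (4.43%) overlaps Prelid1 on the other strand, which had 469 to 1304 counts, so a part of the few Mxd3 reads may be from that gene.

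**Figure D2:**
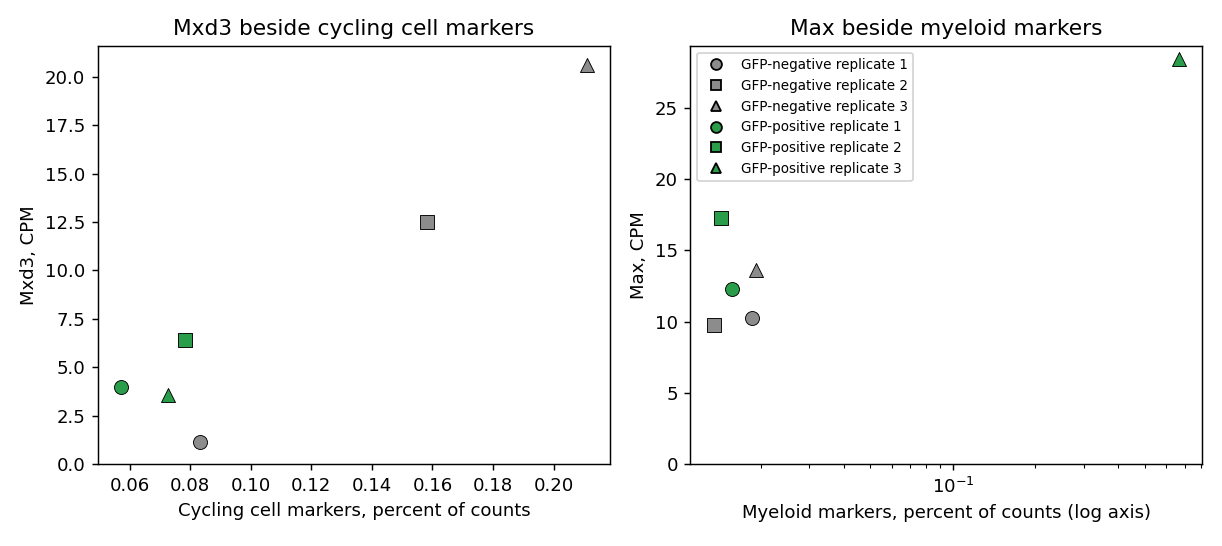
Left, CPM of Mxd3 against the share of counts held by 15 cycling cell markers. Right, CPM of Max against the share held by 10 myeloid markers (log axis). Each point is a library, coloured by gate as grey (GFP-negative) or green (GFP-positive) with the replicate as symbol. Mxd3 is highest, at 12.5 and 20.6 CPM, in the 2 libraries with most cycling transcripts, and Max is highest, at 28.4 CPM, in the library with 0.669% myeloid transcripts.

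Mnt and Mlx overlapped between the gates. Mnt (ENSMUSG00000000282.12, chromosome 11, 74830920 to 74845725, plus strand), a repressor found in most cells, gave 11.4, 5.23 and 8.33 CPM in the negative gate against 7.79, 9.43 and 9.90 CPM in the positive gate, on only 23 to 69 counts. Its log2 fold change was 0.11 ± 0.48 (SE), and it ranged from -0.13 without GFP-negative replicate 2 to 0.41 without GFP-negative replicate 1. Mlx (ENSMUSG00000017801.15, chromosome 11, 101087277 to 101092207, plus strand) gave 97.9, 57.1 and 64.7 CPM in the negative gate against 72.0, 74.5 and 54.1 CPM in the positive gate. Its log2 fold change was -0.13 ± 0.23 (SE), which turned to 0.13 when GFP-negative replicate 1 was left out and to 0.01 when GFP-positive replicate 3 was, and was -0.28 without GFP-negative replicate 2. Of the Mlx exons 19.3% overlap Psmc3ip on the other strand, whose counts of 40 to 56 were low against the 251 to 505 of Mlx.

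**Figure D3:**
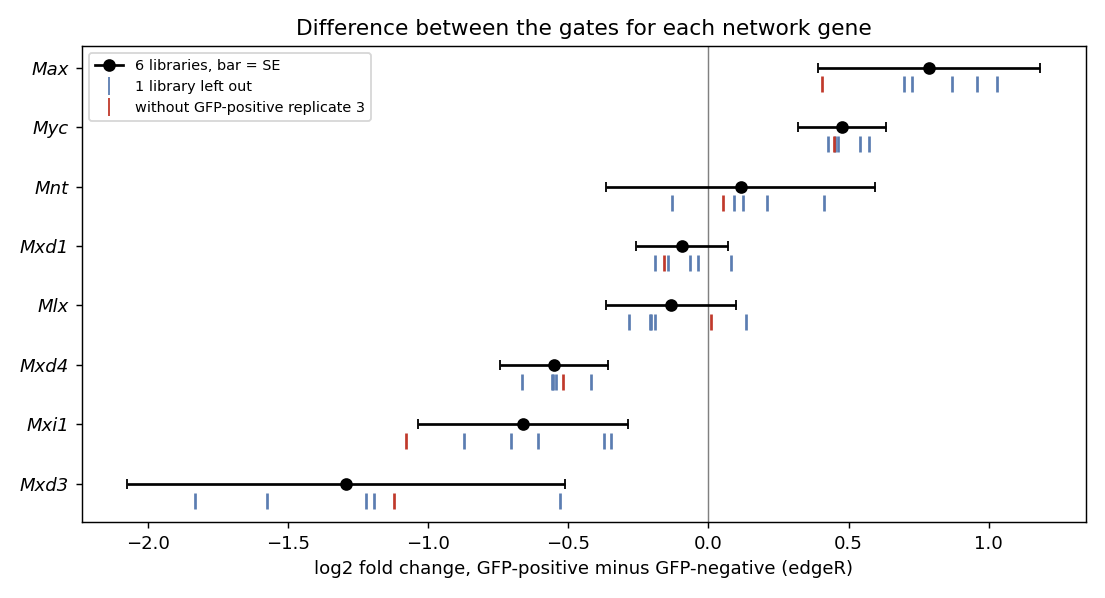
Log2 fold change (GFP-positive minus GFP-negative, edgeR) of each member with its SE as the bar, and below it, as ticks, the values with 1 library left out (red without GFP-positive replicate 3). Myc, at 0.48, and Mxd4, at -0.55, stay on their side, as do Max, Mxd3 and Mxi1, while Mxd1, Mnt and Mlx cross 0. Without GFP-positive replicate 3 Max moves to 0.41 and Mxi1 moves to -1.08.

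Taken as a ratio within each library, Myc over the summed TPM of its opponents (Mxd1, Mxd3, Mxd4, Mxi1 and Mnt) was 0.364, 0.290 and 0.417 for the negative gate against 0.568, 0.590 and 0.542 for the positive gate. The gates did not overlap, with means of 0.357 ± 0.0639 and 0.567 ± 0.0241 (SD, n = 3 each). Myc made up 18.2%, 18.3% and 22.6% of the summed TPM of the 8 genes for the negative gate against 26.8%, 27.7% and 27.8% for the positive gate. The sum itself was 473 ± 27.7 and 450 ± 17.1 TPM (SD, n = 3 each), and its values overlapped. GFP-positive replicate 3 had the lowest ratio of its gate. These ratios restate the members' values and were not tested.

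**Figure D4:**
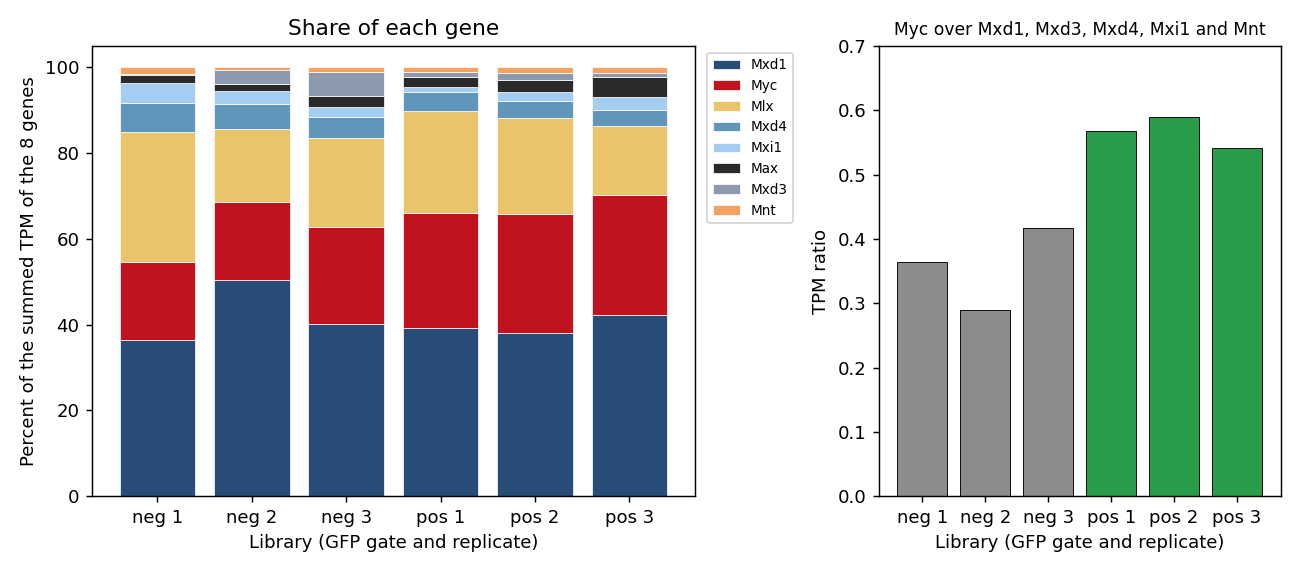
Left, share of the summed TPM of the 8 genes in each library (neg, GFP-negative; pos, GFP-positive, with the replicate). Right, TPM of Myc divided by the summed TPM of Mxd1, Mxd3, Mxd4, Mxi1 and Mnt. The ratio lies at 0.290 to 0.417 in GFP-negative and 0.542 to 0.590 in GFP-positive libraries.

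Other factors of the network were examined next. Mycn and Mycl, the paralogs of Myc, had 0 counts in all 6 libraries, which allows up to 0.43 to 0.69 CPM per library (3 counts, counting error only). Mlxipl, which encodes ChREBP, had 8 counts in GFP-positive replicate 3 and 0 elsewhere. Mlxip, which encodes MondoA, the partner of MLX, gave 173, 153 and 174 CPM in the negative gate against 183, 197 and 218 CPM in the positive gate. The gates did not overlap, and the log2 fold change was 0.26 ± 0.14 (SE; edgeR adjusted p = 0.587). Mga, which encodes a large MAX partner, had a log2 fold change of -0.20 ± 0.24 (SE).

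Beyond the factors themselves, 9 lists of partners and targets held 131 genes, of which 127 were tested. None passed edgeR's test over all genes, and DESeq2 and limma-voom called 0. An unadjusted p below 0.05 was found for 14 of 127, where the share over all tested genes was 10.3%. The same share stands beside the counts of each list below. Without GFP-positive replicate 3, 2 of the 127 were called, beside 0.452% of all tested genes. They were Cdkn1a and Smox, both lower in the positive gate. Of these 127 genes 64 lay on the GFP-positive side and 63 on the GFP-negative side, and the median log2 fold change was 0.01 beside 0.02 over all tested genes. The CPM of the gates did not overlap for 17 of 127, where the share over all tested genes was 16%. By list this was 5 of 16 corepressors, 2 of 16 cofactors and 0 of 15 turnover genes. In further lists it was 3 of 32 ribosome assembly, 3 of 28 growth, 1 of 10 polyamine and 2 of 6 MYC-repressed genes. The other network factors gave 1 of 2 and the glucose-responsive targets 0 of 2.

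**Figure D5:**
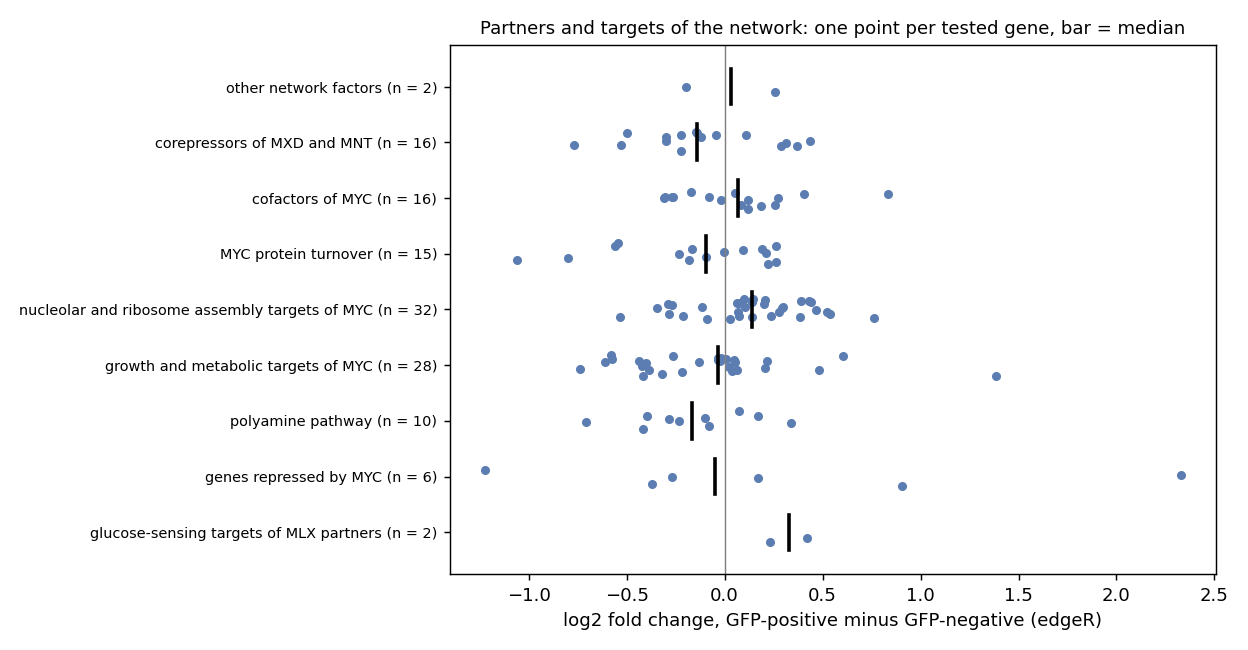
Log2 fold changes (GFP-positive minus GFP-negative, edgeR) of the tested genes of the 9 lists, a point per gene with the list's median as a bar. Medians lie between -0.17 and 0.33 (the highest, of the glucose-responsive targets, was -0.05 without GFP-positive replicate 3), and the medians of the ribosome assembly list and the growth list lie on opposite sides of 0, at 0.14 and -0.03.

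Nucleolar and ribosome assembly genes, a classic group of MYC targets, had 24 positive and 8 negative values among 32, where 51.6% of all tested genes were positive. Their median was 0.14, and 0.09 to 0.21 with 1 library left out. With limma on log2(TPM + 1) it was 0.06, beside -0.03 over all genes tested there. Of the 32, 0 were called (2 with an unadjusted p below 0.05). Wdr43, a factor of the small subunit processome, gave 133, 156 and 111 CPM in the negative gate against 180.3, 190.1 and 168 CPM in the positive gate. Its gates did not overlap, and its log2 fold change was 0.43 ± 0.16 (SE; edgeR adjusted p = 0.36). Ppan (0.76 ± 0.34), Gnl3, which encodes nucleostemin (0.44 ± 0.22), and Nolc1 (0.52 ± 0.29) followed in order of p. The abundant nucleolar genes differed less, with log2 fold changes of 0.10 for Ncl (nucleolin) and 0.14 for Npm1 (nucleophosmin).

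Growth and metabolic targets lay on both sides. Of 28 tested, 11 were positive and 17 negative (median -0.03), 5 had an unadjusted p below 0.05 and 0 were called. With 1 library left out the median ranged from -0.20 (GFP-positive replicate 3 left out) to -0.02. It was -0.15 and -0.12 when replicate 1 or 2 of the negative gate was dropped, and -0.09 when replicate 2 of the positive gate was. Pkm, pyruvate kinase, gave 876, 951 and 1199 CPM in the negative gate against 681, 695 and 854 CPM in the positive gate, without overlap. For Pkm the log2 fold change was -0.44 ± 0.16 (SE; edgeR adjusted p = 0.373). Ran, a GTPase of nuclear transport, had -0.41 ± 0.17, and the transferrin receptor gene Tfrc had -0.58 ± 0.24. Hspe1, a mitochondrial chaperonin, lay on the other side at 0.48 ± 0.18. Ldha, lactate dehydrogenase A, gave 1176, 1322 and 1525 CPM in the negative gate against 889, 1011 and 1184 CPM in the positive gate, and its gates overlapped narrowly.

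The letters CACGTG were in a promoter window of 10 of the 24 growth and metabolic genes and 6 of the 26 ribosome assembly genes matched, beside 8.09% of all genes. For the remaining lists this was 1 of 13 corepressor, 2 of 15 cofactor, 2 of 14 turnover, 1 of 8 polyamine and 1 of 5 MYC-repressed genes. The other network factors gave 1 of 5 and the glucose-responsive targets 1 of 2. Ldha had 2 matches in a window, shown here because it pairs this sequence with a high level.
Ldha, chr7:46845647-46845676, plus strand: ggtgtcgcagcaCACGTGgagccactcttg
Ldha, chr7:46845744-46845773, plus strand: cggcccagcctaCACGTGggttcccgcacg
The windows of Ncl and Odc1 held none.

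In the polyamine pathway 7 of 10 genes were negative (median -0.17) and 0 were called, with 0 at an unadjusted p below 0.05. Odc1, ornithine decarboxylase, its first enzyme, gave 664, 870.2 and 646 CPM in the negative gate against 461, 737 and 459.6 CPM in the positive gate. The gates overlapped through GFP-positive replicate 2. The antizyme genes Oaz2 and Oaz1, which restrain that enzyme, had log2 fold changes of -0.42 ± 0.26 and -0.23 ± 0.16 (SE), and Sat1, which acetylates polyamines, had 0.34 ± 0.21.

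Corepressor genes that MXD and MNT proteins work through were negative in 11 of 16 (median -0.14, and -0.06 without GFP-negative replicate 1), with 3 at an unadjusted p below 0.05, 0 called, and 5 of 16 without overlap (16% of all tested genes). Ncor1, a nuclear corepressor scaffold, gave 199, 242 and 183 CPM in the negative gate against 133, 148 and 151 CPM in the positive gate. For Ncor1 the log2 fold change was -0.53 ± 0.15 (SE; edgeR adjusted p = 0.217). Hdac1, a histone deacetylase of the SIN3 complex, gave 229, 262 and 225 CPM against 186, 180.01 and 141 CPM. The log2 fold changes were -0.50 ± 0.15 for Hdac1 and -0.77 ± 0.26 for Suds3, a SIN3 complex subunit. Arid4b, another subunit, lay on the other side at 0.29 ± 0.15. Hdac2 (-0.30 ± 0.23) and the SIN3 genes Sin3a (-0.05 ± 0.24) and Sin3b (-0.14 ± 0.14) differed less than Hdac1, and their gates overlapped.

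Cofactors of MYC had 9 positive and 7 negative values among 16 (median 0.07), and genes of MYC protein turnover 6 and 9 among 15 (median -0.09), with 0 called in both lists and 0 and 2 at an unadjusted p below 0.05. The cofactor median turned to -0.03 when replicate 1 of the negative gate was left out and to -0.05 when replicate 1 of the positive gate was, with a range up to 0.14. The turnover median ranged from -0.20 when replicate 1 of the negative gate was left out to 0.11 when replicate 3 of that gate was. Mycbp, a MYC binding protein, had a log2 fold change of 0.84 ± 0.42 (SE), Ep300, an acetyltransferase, 0.40 ± 0.23, Zbtb17, which encodes the MYC partner MIZ1, -0.31 ± 0.17, and Hcfc1 -0.26 ± 0.18. In the turnover list Plk1, a mitotic kinase that is also a cycling marker, had -1.06 ± 0.37, Ppp2r5a, a phosphatase subunit, -0.56 ± 0.23, and the ubiquitin ligase gene Huwe1 0.26 ± 0.16. Aurka, another mitotic kinase, had -0.80 ± 0.50.

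Of the 6 genes listed as repressed by MYC, 3 were positive and 3 negative, with 2 at an unadjusted p below 0.05 and 0 called. Their median of -0.05 went to -0.41 without GFP-positive replicate 3 and turned to between 0.02 and 0.13 when either other library of the positive gate, or replicate 1 or 3 of the negative gate, was left out. Cdkn2c, which encodes the cell cycle inhibitor p18, gave 36.8, 27.5 and 33.8 CPM in the negative gate against 21.8, 7.36 and 12.6 CPM in the positive gate, without overlap (log2 fold change -1.22 ± 0.37, SE; edgeR adjusted p = 0.251). Cdkn1b, which encodes p27, had 0.17 ± 0.13. Gadd45a and Ndrg1 were highest in GFP-positive replicate 3, at 21.1 and 17.6 CPM, against at most 2.53 and 6.06 CPM in the other libraries. Txnip and Arrdc4, the glucose-responsive targets of MLX with MondoA, had log2 fold changes of 0.23 ± 0.16 and 0.42 ± 0.43. Txnip gave 452, 326 and 422 CPM in the negative gate against 426, 463 and 519.8 CPM in the positive gate, and the gates overlapped. Arrdc4 was highest in GFP-positive replicate 3, at 40.6 CPM against at most 19.8 CPM in the other 5 libraries.

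The genes with the profile most like that of Myc over the 6 libraries, by the root mean square difference of log2 CPM centred on each gene's mean among 9008 candidates, were Trmt1 (0.0432), Rps18 (0.066), Rpl36 (0.0679) and Slc37a1 (0.0758). Trmt1, a transfer RNA methyltransferase, gave 18.6, 18.6 and 20.8 CPM in the negative gate against 26.3, 28.5 and 28.8 CPM in the positive gate. For Mxd1 they were Rfesd (0.0532), Mrpl22 (0.0726), Capns1 (0.0743) and Raly (0.0787). With 6 libraries and so many candidates close matches arise without any link, and the lists are descriptions.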

How the data were processed

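Bulk RNA-seq of 3 GFP-positive and 3 GFP-negative libraries was used, grouped by sample title. Per the labels' protocols, cDNA was made with oligo-dT and random primers, amplified and tagged with a transposase kit, with no strand mark or molecular identifier. The authors deposited raw counts and TPM. The submitters' processing notes list STAR 2.7.10b, fastp 0.23.3, deepTools 3.5.1 and SAMtools 1.17 with the mm10 build; which program counted reads, and on what annotation, is not given in the sources used here. For all 8 members the deposited counts and TPM imply gene lengths in proportion to the merged exons of GENCODE M21, whose coordinates are printed (1-based); 54587 of 55335 gene IDs matched it with their version.

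The test was edgeR 4.0.16 (R 4.3.3, quasi-likelihood, robust, TMM, default filter with a minimum count of 10, group as the only term) on the whole table, with Benjamini-Hochberg adjustment over 11074 genes. CPM use TMM-scaled totals, and log2 CPM has a prior count of 2. The SE is the fold change over the square root of F. DESeq2 1.42.0 and limma 3.58.1 served as alternatives, on counts and on log2(TPM + 1) or log2(TPM + 0.1), keeping genes that average 1 TPM or more. RLE factors, library size alone, other filters, a replicate block and leaving out each library were also tried. The count tests were tried on simulated data with fold changes larger than those of any member and the same dispersion (spread beyond counting error) for all genes. That trial does not show how well differences as small as the members' would be found.

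The members and lists were chosen with earlier results of these data known. Named genes are Tcf7, the members, the other network factors, up to 4 genes per list with the smallest p, 5 fixed genes (Ncl, Npm1, Odc1, Ldha and Txnip) and 4 genes most like Myc and the most abundant MXD gene among those with at least 5 CPM. Hdac2, Sin3a and Sin3b were added beside Hdac1 after their values were seen. Counts of any pair of libraries differed with a chi-square of at least 10.7 times its degrees of freedom, so none was a duplicate.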

Additional observations from a re-analysis of the deposited data

How the results depend on the processing

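None of the 8 members was called under any of the 16 alternatives, and no member moved by more than its spread between replicates. That spread, the pooled SD of log2 CPM within gates, ran from 0.126 for Myc to 1.44 for Mxd3. It was 0.618 for Mxi1 and 0.456 for Max. Such wide limits say little for these 3 genes, as Mxd3 ran from -1.83 to -0.53 within its limit. Myc, Max, Mxd3, Mxd4 and Mxi1 kept their sign in all 16. Mxd1 and Mnt changed sign without GFP-negative replicate 2, and Mlx without GFP-negative replicate 1 or GFP-positive replicate 3. The count of called genes was 12 and moved to 19 with library size alone, 373 with no filter on low counts, 200 with DESeq2, 81 with the replicate block, 1 on log2(TPM + 1) with or without a filter and 0 on log2(TPM + 0.1) (1156 at an unadjusted p below 0.05). With 1 library left out it ranged from 0 (without GFP-positive replicate 1) to 50 (without GFP-positive replicate 3). The cause was not tested. Genes of the pathway lists called were 0, 1 with no filter (Cdkn2c, edgeR adjusted p = 0.0238, and 0.0238 to 0.563 over the 16 alternatives), and 0 to 2 with 1 library left out. The median of the other network factors was 0.03, and 0.25 with no filter and 0.19 on log2(TPM + 1) without a filter, where 3 genes were tested in place of 2. With 1 library left out the corepressor median ranged from -0.197 to -0.0581 and that of the glucose-responsive targets from -0.0530 to 0.493. The replicate block rests on numbers alone. Deviations of same-numbered libraries correlated at 0.104, 0.0971 and 0.104 across genes, and every library correlated best with its own number, a hint from the data that the design does not state. With that block Myc had a log2 fold change of 0.48 and the lowest adjusted p of the members (edgeR, 0.204), where the 16 alternatives gave 0.196 to 0.763 for Myc. Mxd3, Mnt and Max had as few as 6, 23 and 43 counts. GFP-negative replicate 1, with 6 Mxd3 counts, held 5183794 counts in all, and GFP-negative replicate 3, with 94, held 4571460. The part of depth in the spread of these genes was not tested.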

Other observations

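A pair of genes named here after their values were seen was called only when GFP-positive replicate 3 was left out. In that setting 0.452% of all tested genes were called. Cdkn1a, which encodes the cell cycle inhibitor p21 and is repressed by MYC, gave 176, 137 and 142 CPM in the negative gate, 76.2 and 83.2 CPM in the first 2 libraries of the positive gate and 217 CPM in GFP-positive replicate 3. Without that library its log2 fold change was -0.92 (edgeR adjusted p = 0.0483), and with it -0.27; over the 16 alternatives its adjusted p ran from 0.0483 to 0.997. Smox, spermine oxidase of the polyamine pathway, gave 64.5, 46.8 and 45.6 CPM in the negative gate and 14.0, 21.6 and 60.1 CPM in the positive gate. Its log2 fold change was -1.55 without that library (edgeR adjusted p = 0.0495) and -0.71 with it, and its adjusted p ran from 0.0495 to 0.887. Markers of myeloid cells (0.669% of counts), antigen-presenting, innate lymphoid, epithelial and stromal cells were highest in that library, and their part in these values was not tested.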
